A study of Mus musculus with 4 samples.

Results

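Interferon-stimulated genes are the genes that cells switch on when an interferon binds its receptor, and 31 of them were followed here across the cell types of mouse skin after loss of ΔNp63. The rule that picks them uses their names and a minimum of molecules, not a difference between samples. Of the 31 genes, 29 matched a name among the 32285 genes of the matrices, and Mx1 and Mx2 were not analysed here. A member was described at a time point when both libraries together held 20 or more of its UMIs (unique molecular identifiers, each standing for 1 captured RNA molecule), which 25 members met at 1 day and all 29 at 1 week. Ifit2, Ifit3, Ifit3b and Oasl1 did not reach 20 UMIs at 1 day.

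The study measured single-cell RNA from adult mouse epidermis in 4 libraries, 1 for each combination of genotype and time. Control mice were DNp63fl/fl, with both copies of the ΔNp63 sequence flanked by loxP sites and no Cre. Experimental mice were DNp63fl/fl;K14-CreT2, in which the K14 promoter drives a tamoxifen-dependent Cre in basal keratinocytes. Both genotypes received tamoxifen by oral gavage at 200 mg/kg, and skin was taken 1 day or 1 week later, from animals of both sexes aged 2 to 17 months. The skin was split with 0.25% trypsin either overnight at 4 °C or at 37 °C, and the labels do not say which animals, ages or digestions went into which library. The 1 day libraries used a 3′ kit and the 1 week libraries a 5′ kit, so the time points were never compared by level. With 1 library in each group no test of genotype was possible. The intervals given below are 95% intervals that cover counting error only, and they say nothing about differences between animals.

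Interferons are secreted proteins that warn cells of infection. Type I and type III interferons act through JAK1 and TYK2 on the complex ISGF3, of which STAT2 and IRF9 are subunits, and ISGF3 binds interferon-stimulated response elements in the promoters of antiviral genes. Interferon gamma acts through JAK1 and JAK2 on genes with gamma-activated sequences, and Irf1 is a well known target. Keratinocytes keep a low level of this programme without infection, and their own type I interferon is interferon kappa, encoded by Ifnk.

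Both kinds of element can be read in the members' promoters, which is why 6 of them are shown. The sequences are from RefSeq (GRCm38.p6), run 5′ to 3′ on the gene's strand and end before the gene's first base in GENCODE M21; the Ifi202b window follows a RefSeq start upstream of the GENCODE one and does not reach the gene. Capitals mark matches, on either strand, to GAAA, any 2 bases and GAAA again, a spelling of the core of the response element (overlapping matches run together), or to TTCNNNGAA, a spelling of the gamma-activated sequence that reads the same on both strands. Ifit1, Isg15 and Rsad2 are antiviral genes with the first spelling, Irf1 and Ifi202b have the second, and Irf7 has neither in this window.
Isg15 (chr4:156200819-156200968, minus strand): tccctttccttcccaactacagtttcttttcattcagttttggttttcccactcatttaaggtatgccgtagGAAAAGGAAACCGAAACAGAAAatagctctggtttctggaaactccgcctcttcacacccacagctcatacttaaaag
Ifit1 (chr19:34640739-34640870, plus strand): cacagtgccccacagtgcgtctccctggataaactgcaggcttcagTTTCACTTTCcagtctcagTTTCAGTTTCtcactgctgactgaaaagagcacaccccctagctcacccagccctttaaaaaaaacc
Rsad2 (chr12:26456453-26456602, minus strand): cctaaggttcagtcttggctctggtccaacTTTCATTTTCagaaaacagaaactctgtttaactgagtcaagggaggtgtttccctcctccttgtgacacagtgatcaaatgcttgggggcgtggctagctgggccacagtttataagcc
Irf1 (chr11:53769864-53770013, plus strand): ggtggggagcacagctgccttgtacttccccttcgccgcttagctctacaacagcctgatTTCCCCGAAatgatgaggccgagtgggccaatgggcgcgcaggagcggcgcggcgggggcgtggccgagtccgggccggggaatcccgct
Ifi202b (chr1:173982845-173982994, minus strand): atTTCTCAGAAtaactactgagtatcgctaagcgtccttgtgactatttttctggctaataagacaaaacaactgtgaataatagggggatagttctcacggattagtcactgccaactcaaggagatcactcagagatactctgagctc
Irf7 (chr7:141266482-141266574, minus strand): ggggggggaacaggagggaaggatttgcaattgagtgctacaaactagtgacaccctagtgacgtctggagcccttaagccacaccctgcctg

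Promoter sequences were found for 22 of the 29 members. Over the 250 bases before the start, the repeated GAAA was present in 11 of those 22 promoters (50%) and in 2.98% of all 32851 promoters. The 11 genes were Ifit1, Ifit3, Ifit3b, Isg15, Stat2, Oas1a, Oas3, Rsad2, Bst2, Gbp2 and Gbp3. The spelling TTCNNNGAA was present in 5 of the 22 (22.7%), against 7.02% of all promoters, in Ifit2, Irf1, Oas1a, Bst2 and Ifi202b. Bst2 and Oas1a held both spellings. A match describes letters and is not a measured binding site, and no match says only that the letters are not in the window. The members also cluster along the genome in part: 4 Ifit genes lie on chromosome 19 and 5 Oas and Oasl genes on chromosome 5. Reads of near-identical copies may be split between them, so Ifit3 and Ifit3b, Oas1a and its tandem copies, and Ifi202b and the other genes of its cluster are uncertain at the level of the single gene. Irf9, Parp14 and Rtp4 overlap another annotated gene on the same strand and are uncertain in the same way.

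The 1 day pair of libraries held 33552 control and 32212 experimental barcodes and the 1 week pair 25039 and 18413. After filters 22298, 23651, 19879 and 15626 cells were used, in that order. A used cell had a median of 4130.5 or 3358 UMIs in the 1 day pair and of 1381 or 1606 in the 1 week pair. Keratinocytes named from markers made up 20593 control and 18304 experimental cells of the 1 day pair and 8396 and 3244 of the 1 week pair. In the keratinocytes, Trp63, which encodes p63, stood at 404 and 127 counts per 1000000 UMIs (CPM) at 1 day and at 432 and 159 CPM at 1 week, lower in the experimental library each time. The counts do not separate ΔNp63 from other p63 transcripts. Xist was at 4 and 5 UMIs in the 1 day libraries, against 10527 and 9798 UMIs of the Y-linked Ddx3y, so those libraries held few if any female cells, although the labels give both sexes. In the 1 week libraries Xist was at 20212 and 8032 UMIs and Ddx3y at 3767 and 1841. The sex make-up thus differed between the times. The libraries of a time point shared 262 and 657 barcodes, against 9 to 18 for other pairs of libraries; without those found among the used cells, every count of members past 2-fold given for keratinocytes and endothelial cells was the same. At 1 week, clusters of low-UMI cells (10772 control and 11349 experimental) were kept apart from every named class.

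The make-up of the epidermis differed greatly between genotypes, which touches every average over keratinocytes. Basal-marker cells were counted 4791 times in the 1 day control and 436 times in its experimental partner, and 2443 and 25 times in the 1 week pair. Suprabasal-marker cells were counted 3999 and 525 times, then 1078 and 4 times. Granular-marker cells, of the last living layer, went the other way, 132 and 1151, then 28 and 140. Cells with markers of the hair follicle bulge or outer root sheath came to 3765 and 2183, then 976 and 873, and upper hair follicle-marker cells were more even still, 1746 and 1593, then 455 and 492. Keratinocytes with no leading class came to 5265 and 11688, then 3240 and 1628. A Krt8-led group of clusters, 1 control and 4514 experimental cells in the 1 day pair and 1 and 492 in the other, was kept outside the keratinocytes. Names ending in "-like" below mean that the class rests on such markers. These class sizes are not reported as findings.

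In keratinocytes the interferon-stimulated genes did not move together. Their summed level was 2051 CPM in control and 831 CPM in the experimental library at 1 day, and 991 and 386 CPM at 1 week, but nearly all of that gap came from Ifi202b and Ifi27. Without those genes the other members summed to 139 and 140 CPM at 1 day and to 223 and 237 CPM at 1 week. Ifi202b alone made up 84.5% of member UMIs in control and 70.2% in experimental keratinocytes at 1 day, and 61.5% and 12.7% at 1 week. UMIs are counted at 1 end of each transcript, so these shares are of molecules and are not scaled by gene length.

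At 1 day, 1 of 25 members, Irf7, was at least 2-fold higher in experimental keratinocytes, where 8.98% of all 15473 genes with 20 or more UMIs in the pair of libraries were, and 4 were at least 2-fold lower (Ifi202b, Oasl2, Oas3 and Ifi44), where 3.09% of all genes were. The median log2 ratio, experimental over control, was -0.14 over the members and 0.02 over all genes. At 1 week, 6 of 29 members were at least 2-fold higher (Irf7, Ifit1, Ifit2, Ifit3b, Oas2 and Oasl1), where 11.5% of all 16118 genes were, and 2 were at least 2-fold lower (Ifi202b and Usp18), where 7.72% of all genes were. The median log2 ratio was 0.22 over the members and 0.10 over all genes. The 4 of 25 lower at 1 day and the 6 of 29 higher at 1 week lie above the share for all genes. The other counts lie at or below it, and none was tested. Of the 6, Ifit2, Ifit3b and Oas2 had fewer than 20 UMIs in keratinocytes and entered through the UMIs of all cells. Only Irf7, Ifit1 and Oasl1 of the 6 held 20 or more UMIs there. The 1 week count thus rests in part on genes hardly counted in keratinocytes. Its place above the share for all genes depends on how members entered and is not read as a result. Except for Ifi202b, Irf7 and Usp18, the genes in these counts were rare: no other one reached 3 CPM in keratinocytes of either library. By sign, 8 members were above and 17 below 0 at 1 day, and 18 above and 11 below at 1 week.

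**Figure D1:**
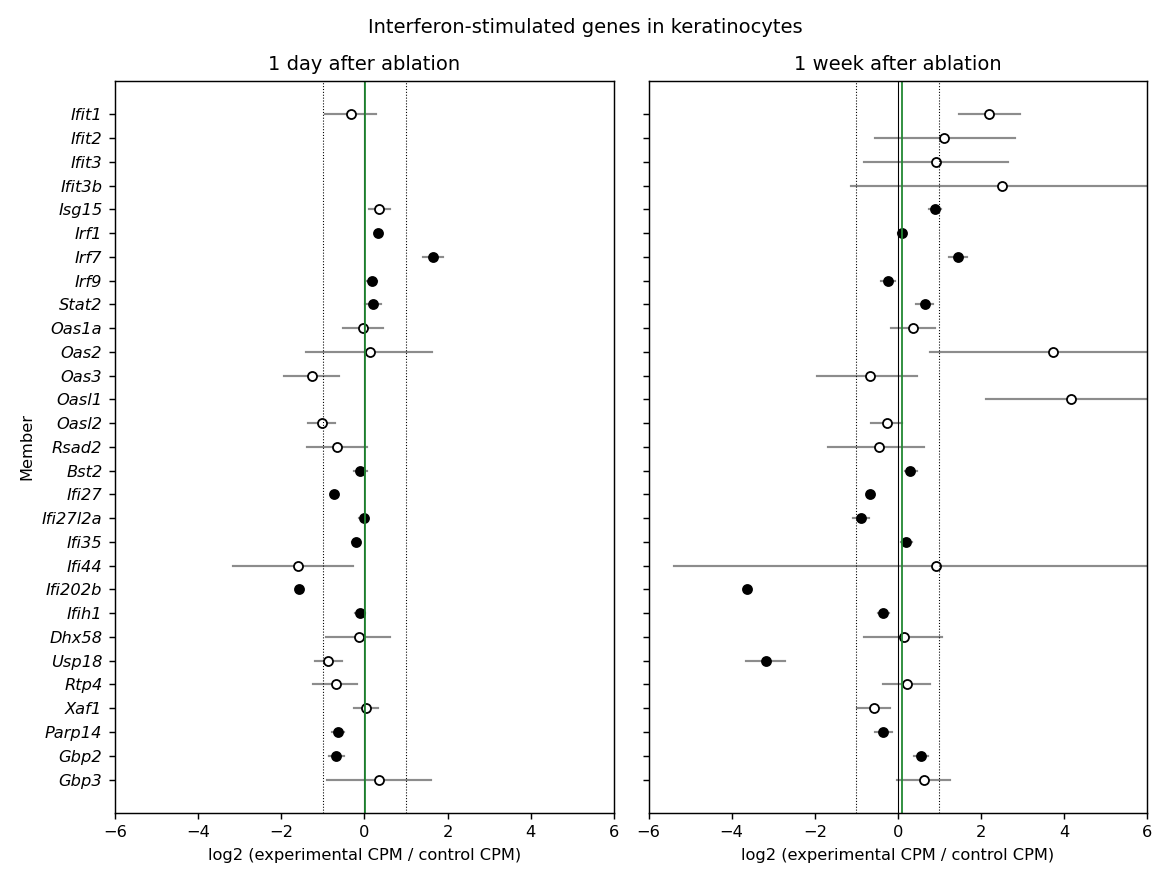
Log2 ratio of each member's CPM in keratinocytes, experimental over control, at 1 day and 1 week; bars are 95% counting intervals from 1 library per group, filled points reach 5 CPM in a library, dotted lines mark 2-fold and the green line is the median of all genes. Ifi202b lies below -1 and Irf7 above 1 at both times, while most other filled points lie within 1 of 0.

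Ifi202b was the most counted member in keratinocytes at both times in control skin. It encodes a protein of the interferon-inducible p200 family whose relative Aim2 senses DNA; the gene lies at chr1:173962568-173982744 on the minus strand, and its level is known to differ between inbred strains, which the labels do not give. Its keratinocyte level was 1733 CPM (187968 UMIs) in the control and 584 CPM (45921 UMIs) in the experimental library at 1 day, a log2 ratio of -1.57 (interval -1.58 to -1.56). After 1 week it was 609 CPM (35253 UMIs) and 48.9 CPM (1497 UMIs), a log2 ratio of -3.64 (-3.71 to -3.56).

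At 1 day the experimental library had a lower Ifi202b average and fewer basal-like and suprabasal-like cells, and a link between these was not tested. Control Ifi202b was highest in basal-like cells, at 3765 CPM, and suprabasal-like cells, at 2375 CPM. In the experimental library those classes stood at 3324 and 2508 CPM, close to control. Together they held 77.8% of the gene's keratinocyte UMIs in the control library and 20.6% in the experimental one, while holding 44.9% and 4.18% of all keratinocyte UMIs. In the remaining keratinocytes the level was 698 and 484 CPM, a log2 ratio of -0.53 (-0.55 to -0.51). With each class weighted as in the control library the ratio over all keratinocytes was -0.17. That weighting takes unclassed keratinocytes as 1 class, although 4999 and 2763 of the experimental ones lay in clusters with 13 and 152 control cells.

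The other compartments varied. In cycling keratinocytes at 1 day, 576 control and 565 experimental cells, Ifi202b was at least 2-fold lower in the experimental library. At 1 day Ifi202b was at 560 CPM in control and 341 CPM in experimental upper hair follicle-like cells, and at 417 and 128 CPM in sebaceous-like cells. It was at 197 and 157 CPM in bulge or outer root sheath-like cells, and higher in the experimental library in granular-like cells, at 224 and 266 CPM. The Krt8-led cells of the experimental library held 1413 CPM. Outside the keratinocytes, Ifi202b was counted at 302 and 814 CPM in T cells, 293 and 118 CPM in Langerhans cells and 264 and 299 CPM in fibroblasts. The bulge or outer root sheath-like and granular-like values of 1 day thus lie no higher than some of those in cells that are not keratinocytes, and the part of free RNA in them was not tested. The sebaceous-like cells were the follicle-associated class where the libraries stood furthest apart, with a log2 ratio of -1.71.

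At 1 week, when T cells held 2.66 and 0 CPM of it, Ifi202b was lower past its counting interval in each keratinocyte class with 20 cells in both libraries except granular-like cells. Basal-like cells stood at 1199 CPM in control and 416 CPM in the 25 experimental cells, upper hair follicle-like cells at 84.8 and 52.6 CPM, and sebaceous-like cells at 41.9 and 12.2 CPM. Bulge or outer root sheath-like cells stood at 7.69 and 1.37 CPM, while granular-like cells, at 4.08 and 3.57 CPM, held only 2 and 8 UMIs (log2 ratio -0.19, -2.52 to 3.08). Outside the basal-like and suprabasal-like classes the level was 267 CPM in control and 45.4 CPM in the experimental library, a log2 ratio of -2.55 (-2.64 to -2.47). Weighting the classes as in the control gave -1.72. At 1 week that weighting covers the 6 classes with 20 cells in both libraries, leaves out suprabasal-like cells (1078 control and 4 experimental cells), and rests for basal-like cells on the 25 experimental ones. It also takes the unclassed cells as 1 class, although they lay largely in different clusters by library.

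**Figure D2:**
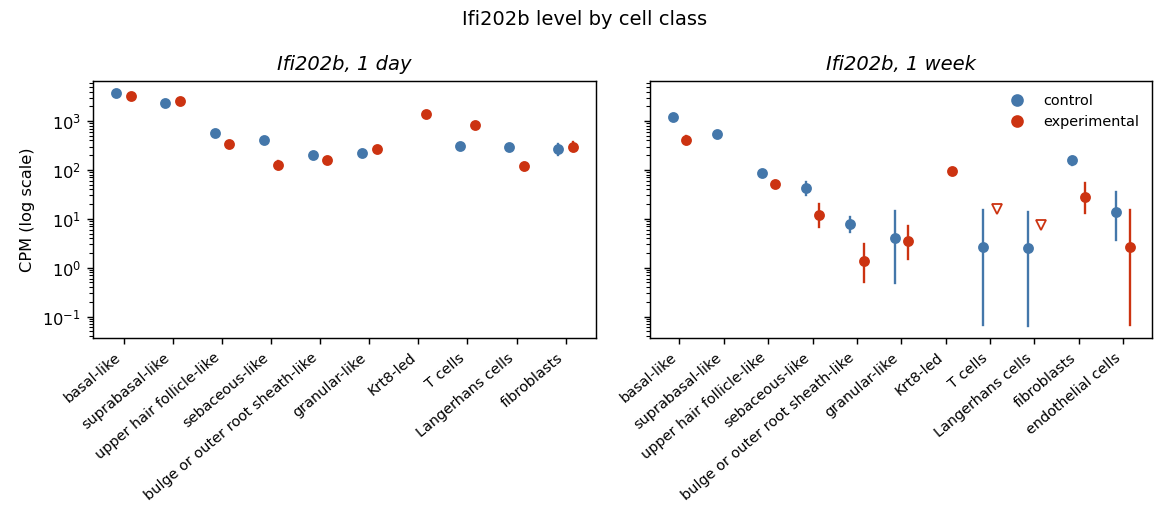
Ifi202b CPM (log axis) by cell class in the control (blue) and experimental (red) libraries, with 95% Poisson intervals; open triangles stand at 3 counts where a class held 0 UMIs. At 1 day the basal-like pair nearly coincides at 3765 and 3324 CPM, while at 1 week it stands at 1199 and 416 CPM.

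Ifi27, a small mitochondrial protein strongly induced by type I interferon, was lower in experimental keratinocytes at both times by less than 2-fold. It stood at 179 CPM in control and 108 CPM in the experimental library at 1 day (log2 ratio -0.73, -0.77 to -0.70), and at 158 and 99.2 CPM at 1 week (-0.67, -0.73 to -0.61). It was more even across classes than Ifi202b. In control skin at 1 day it was at 210 CPM in basal-like, 171 CPM in suprabasal-like and 182 CPM in upper hair follicle-like cells, and the experimental library stood at 129, 134 and 125 CPM in the same classes. At 1 week the basal-like classes did not separate (164 and 166 CPM, 25 experimental cells). In bulge or outer root sheath-like cells alone the gap was small, with log2 ratios of -0.22 at 1 day and -0.08 at 1 week. Ifi27l2a, its close relative, was level at 1 day (16.7 and 16.5 CPM, log2 ratio -0.01) and lower in the experimental library at 1 week (16.6 and 8.99 CPM, -0.88). Reads of the relatives could be split between them.

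Irf7 was the one member at least 2-fold higher in experimental keratinocytes at both times. It encodes the transcription factor that amplifies the type I interferon response, and lies at chr7:141262706-141266481 on the minus strand. It stood at 1.95 CPM (211 UMIs) in the control and 6.14 CPM (483 UMIs) in the experimental library at 1 day, a log2 ratio of 1.66 (1.42 to 1.90). After 1 week it stood at 5.67 CPM (328 UMIs) and 15.5 CPM (474 UMIs), a log2 ratio of 1.45 (1.24 to 1.66). Without the cell holding most Irf7 UMIs in each library the log2 ratios were 1.67 and 1.61.

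Except in the 1 day control, a large part of the Irf7 UMIs lay in granular-like cells. These cells held 2.37% of the gene's keratinocyte UMIs in the control and 27.5% in the experimental library at 1 day, and 31.7% and 58.6% at 1 week. Their share of all keratinocyte UMIs also differed, at 1.08% and 8.71% at 1 day and at 0.848% and 7.33% at 1 week. Within them Irf7 was at 4.26 CPM (5 UMIs) in the control and 19.4 CPM (133 UMIs) in the experimental library at 1 day, a log2 ratio of 2.19 (0.93 to 3.83). After 1 week it was at 212 and 124 CPM, but 64 of the 104 control UMIs came from 1 cell, and without the highest cell of each library the levels were 81.5 and 103 CPM, a log2 ratio of 0.33 (-0.16 to 0.85). In the keratinocytes other than granular-like ones, Irf7 stood at 1.92 and 4.87 CPM at 1 day (1.34, 1.09 to 1.6), still past 2-fold. At 1 week it stood at 3.9 and 6.91 CPM there (0.82, 0.54 to 1.11), under 2-fold.

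In the follicle classes the Irf7 counts were small. Upper hair follicle-like cells stood at 1.16 and 3.37 CPM at 1 day (9 and 21 UMIs, log2 ratio 1.55, 0.36 to 2.86) and at 2.84 and 8.98 CPM at 1 week (9 and 42 UMIs, 1.66, 0.60 to 2.89). Bulge or outer root sheath-like cells were closer, at 2.11 and 2.86 CPM (22 and 18 UMIs, 0.44, -0.55 to 1.40) and at 1.81 and 3.202 CPM (8 and 14 UMIs, 0.82, -0.53 to 2.28), and both intervals hold 0. In the largest unclassed cluster that both libraries shared Irf7 was level, at 3.37 and 3.51 CPM at 1 day and at 6.11 and 6.24 CPM at 1 week. A pair of smaller shared clusters at 1 day stood at 1.73 and 2.89 CPM (24 and 11 UMIs) and at 3.35 and 6.25 CPM (14 and 16 UMIs). The Krt8-led cells of the experimental library held 6.99 CPM at 1 day and 21.1 CPM at 1 week. The 25 experimental basal-like cells of 1 week held 15 Irf7 UMIs (54.2 CPM, against 5.63 CPM in the control), too few cells to carry a comparison.

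Usp18, the protease that removes ISG15 from proteins and dampens type I interferon signalling, was lower in experimental keratinocytes at both times. It stood at 2.61 CPM (283 UMIs) in the control and 1.42 CPM (112 UMIs) in the experimental library at 1 day, a log2 ratio of -0.87 (-1.20 to -0.55). After 1 week it stood at 12.4 CPM (716 UMIs) and 1.37 CPM (42 UMIs), a log2 ratio of -3.17 (-3.66 to -2.72). Basal-like cells stood at 5.40 and 6.16 CPM at 1 day, slightly higher in the experimental library. At 1 week they held 440 of the 716 control UMIs (25.8 CPM), and the 25 experimental cells held 5 (18.1 CPM). With classes weighted as in the control, the 1 week log2 ratio was -0.87 rather than -3.17, over the same 6 classes without suprabasal-like cells, and its basal-like term rests on those 5 UMIs. Bulge or outer root sheath-like cells still stood apart at 1 week, with 11.99 and 3.66 CPM (-1.71, -2.62 to -0.88), but not at 1 day, with 5.00 and 4.45 CPM.

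**Figure D3:**
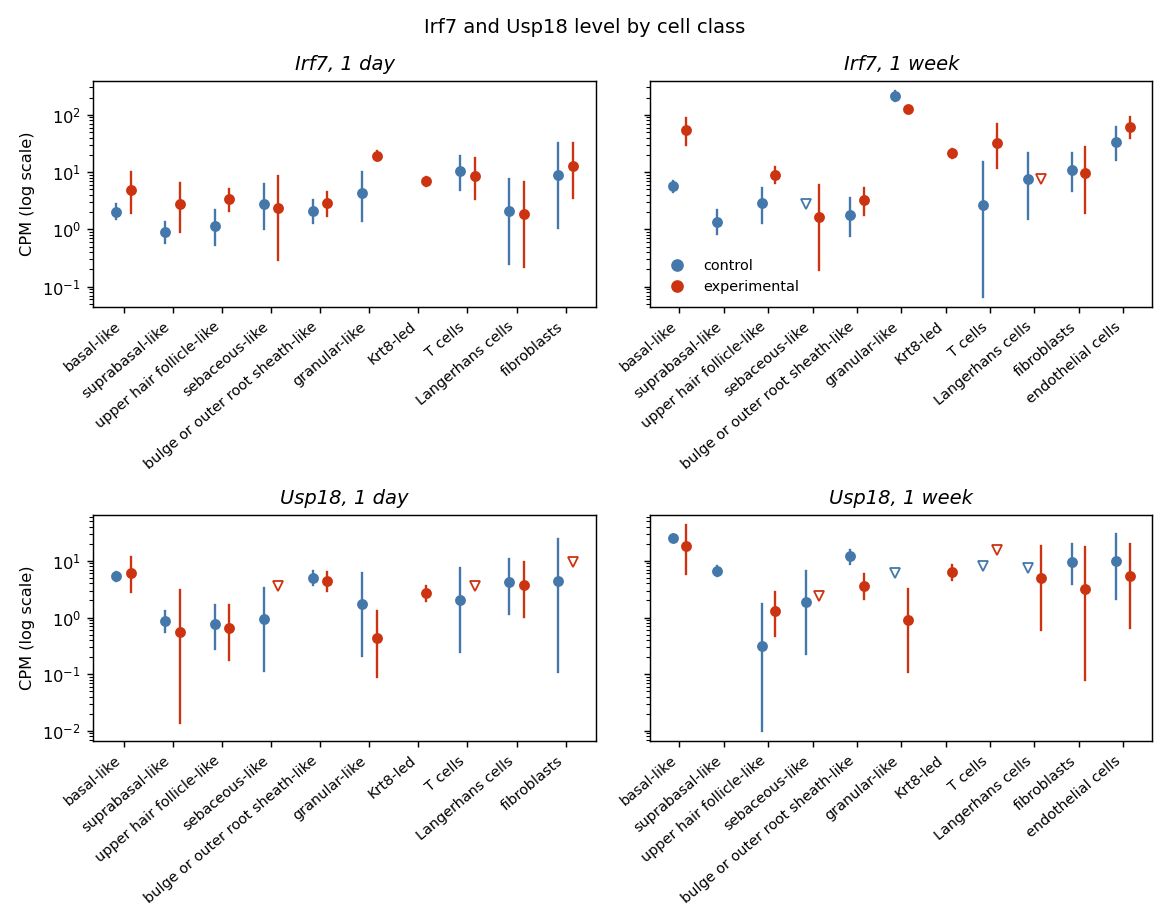
CPM (log axis) of Irf7 and Usp18 by cell class in the control (blue) and experimental (red) libraries, with 95% Poisson intervals; open triangles stand at 3 counts where a class held 0 UMIs. Irf7 reaches its highest keratinocyte level in granular-like cells at 1 week (212 and 124 CPM), and Usp18 in bulge or outer root sheath-like cells at 1 week stands at 11.99 and 3.66 CPM.

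The other transcription factors of the list differed by less than 2-fold. Irf1, the factor tied to interferon gamma, stood at 30.01 CPM in control and 37.6 CPM in experimental keratinocytes at 1 day (log2 ratio 0.33, 0.25 to 0.40), and at 52.5 and 56.2 CPM at 1 week (0.10, 0.01 to 0.18). Stat2, the ISGF3 subunit specific to type I and type III signalling, stood at 4.56 and 5.26 CPM at 1 day (0.21, 0.01 to 0.40) and at 7.47 and 11.7 CPM at 1 week (0.65, 0.44 to 0.85). Irf9, the DNA-binding subunit, stood at 13.0 and 14.7 CPM at 1 day (0.19, 0.07 to 0.30) and at 16.1 and 13.6 CPM at 1 week (-0.24, -0.41 to -0.07). The smaller of these ratios turned with the processing. Irf9 at 1 day was -0.18 with classes weighted as in the control, and at 1 week it was 0.69 in bulge or outer root sheath-like cells alone and 0.08 as the mean of each cell's CPM. Stat2 at 1 day was -0.08 with no doublets removed, and its 1 week ratio kept its sign under each alternative run. Irf1 was higher at 1 day, and its 1 week ratio without the highest cell of each library was 0.07 (-0.01 to 0.16), an interval that holds 0, and -0.02 with TMM scaling.

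Among the antiviral effectors, Isg15 and Bst2 were higher in experimental keratinocytes at 1 week. Isg15, the ubiquitin-like modifier, stood at 2.36 and 3.02 CPM at 1 day (log2 ratio 0.36, 0.10 to 0.62) and at 12.9 and 24.0 CPM at 1 week (0.89, 0.75 to 1.04), of which 65 of 735 experimental UMIs were in 1 cell. Isg15 was level in upper hair follicle-like cells at 1 week, at 24.0 and 23.9 CPM, and with classes weighted as in the control its log2 ratio was 0.19. Bst2, which tethers budding viruses to the membrane, stood at 8.44 and 7.88 CPM at 1 day and at 16.7 and 20.6 CPM at 1 week (0.30, 0.16 to 0.45).

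The other effectors and the RNA sensor Ifih1 differed by less than 2-fold. Ifih1, which encodes the RNA sensor MDA5, stood at 13.0 CPM in control and 12.1 CPM in experimental keratinocytes at 1 day and at 26.0 and 20.4 CPM at 1 week (log2 ratio -0.35, -0.49 to -0.21). Parp14, an ADP-ribosyltransferase, stood at 9.87 and 6.37 CPM at 1 day (-0.63, -0.79 to -0.48) and at 11.3 and 8.82 CPM at 1 week (-0.35, -0.56 to -0.14). Ifi35 stood at 19.97 and 17.4 CPM at 1 day (-0.20) and, higher in the experimental library, at 22.5 and 25.9 CPM at 1 week (0.20). Parp14 was the one of these lower past its counting interval at both times over all keratinocytes. In bulge or outer root sheath-like cells alone it stood the other way, with log2 ratios of 0.25 at 1 day and 0.18 at 1 week, as did Ifih1 (0.24 and 0.16). Over all cells without clustering, the 1 week ratio of Parp14 was 0.06.

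Gbp2, a guanylate-binding protein that attacks the vacuoles of intracellular pathogens, rested on 1 cell at 1 week. It stood at 7.14 CPM in control and 4.46 CPM in experimental keratinocytes at 1 day (log2 ratio -0.68, -0.86 to -0.49). At the later time it stood at 10.99 and 16.1 CPM (0.55, 0.38 to 0.73), but 208 of the 494 experimental UMIs came from 1 cell. Without the highest cell of each library the 1 week levels were 10.6 and 9.35 CPM, a log2 ratio of -0.18 (-0.39 to 0.03). Its relative Gbp3 had 18 of 39 experimental UMIs in 1 cell, and its log2 ratio of 0.62 became -0.18 without the highest cells.

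The remaining members were scarce in keratinocytes. At 1 day 13 members stayed at or below 3.02 CPM, and at 1 week 15 stayed at or below 3.54 CPM. Ifit1, an RNA-binding antiviral protein, had 62 control and 36 experimental UMIs at 1 day. At 1 week it had 24 and 58 (log2 ratio 2.19, 1.48 to 2.94), the 58 lying in 18 cells with 23 in 1 of them; without the highest cells the log2 ratio was 1.59. Oasl1 had 2 and 19 UMIs at 1 week, the 19 in 6 cells. Ifit2 (7 and 8 UMIs), Ifit3b (1 and 3) and Oas2 (1 and 7) also count among the 6 higher members, with so few molecules that their ratios carry little weight. Oasl2, of the oligoadenylate synthetase family, had 317 and 113 UMIs at 1 day (2.92 and 1.44 CPM, log2 ratio -1.03, -1.35 to -0.71), and Oas3 had 85 and 26 (-1.25, -1.94 to -0.60).

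Counted class by class, with members of 20 or more UMIs in the class, few passed 2-fold at 1 day. In basal-like cells 2 of 17 were higher, where 5.13% of all genes were: Isg15 (1.81 and 6.16 CPM, 9 experimental UMIs) and Irf7. Oasl2 was lower there (6.08 and 2.05 CPM), where 4.32% of all genes were. In suprabasal-like cells 2 of 17 were higher, where 7.25% were, Irf7 and Irf1, and Irf1 stood far apart, at 4.43 CPM (118 UMIs) and 23.0 CPM (42 UMIs), a log2 ratio of 2.37 (1.83 to 2.89). Oas1a and Ifi27l2a were lower in those cells on 1 and 2 experimental UMIs, where 4.25% were.

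In granular-like cells at 1 day 3 of 10 members were higher, where 11.6% of all genes were, Irf7, Stat2 and Ifi27l2a, the last pair on 2 control UMIs each, and none lower, where 4.87% were. In cycling keratinocytes, 576 and 565 cells, 2 of 13 were higher, where 6.31% were, Irf9 (5.17 and 13.7 CPM) and Ifi27l2a (41.6 and 85.4 CPM), and Ifi202b (1830 and 647 CPM) and Usp18 (5.40 and 1.03 CPM) were lower, where 4.22% were. In upper hair follicle-like cells 1 of 15 was higher, Irf7, where 3.57% were, and 1 lower, Gbp2 (7.58 and 2.57 CPM), where 1.35% were. In sebaceous-like cells none of 8 was higher, where 3.91% were, and Ifi202b and Ifi35 (21.5 and 10.7 CPM) were lower, where 2.91% were. In unclassed keratinocytes Irf7 was higher, 1 of 22 where 6.89% were, and Ifit1, Rsad2 and Rtp4 were lower, all below 2 CPM, where 4.92% were. The unclassed cells differed by cluster here too: 4999 and 2763 of the experimental ones lay in clusters with 13 and 152 control cells. In the unclassed cluster most shared (2842 and 2273 cells) Irf7 was level, at 3.37 and 3.51 CPM, while the 4999 cells held 6.72 CPM.

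At 1 week the 25 experimental basal-like cells held 2 of 18 members at 2-fold or more above control, Irf7 and Stat2 (6 UMIs), where 13.4% of all genes were, and Ifi27l2a and Ifi202b below it, where 5.88% were. None of 7 members passed 2-fold in granular-like cells, where 7.01% of all genes were higher and 14.4% lower. In sebaceous-like cells 4 of 8 were lower, where 4.78% were, and none higher, where 8.06% were. The 4 were Ifi202b, Ifih1 (22.4 and 8.14 CPM), Irf9 (16 and 4 UMIs) and Irf1 (30.8 and 7.33 CPM, log2 ratio -2.07, -3.32 to -0.97). Irf1 was thus lower in sebaceous-like cells while it was higher in bulge or outer root sheath-like cells, in the same library. The sebaceous-like class held 176 control and 82 experimental cells, with medians of 5377.5 and 14214.5 UMIs. A further 279 experimental cells with sebaceous markers lay in a low-UMI cluster with no control cell. The 2 sides of this class may therefore hold differently selected cells. In unclassed keratinocytes Oas1a was higher (1.07 and 2.59 CPM), 1 of 22 where 7.13% were, and Ifi27l2a, Ifi202b and Usp18 were lower, where 9.66% were. Unclassed cells lay largely in different clusters by library, 1113 and 942 control cells in a pair of clusters with 5 and 1 experimental ones, and 386 and 323 experimental cells in another pair with no control cell. In the unclassed cluster that both shared (962 and 826 cells) Ifi202b stood at 230 and 88.5 CPM and Usp18 at 3.69 CPM (26 UMIs) and 0.974 CPM (10 UMIs). The low-UMI clusters had Ifi202b and Usp18 lower too, 2 of 23 where 5.69% were, and 5 of 23 members higher, where 9.66% were. Of these 22121 cells, 98.2% lay in clusters with at least 95% of their cells from 1 library, so these values compare different clusters of cells and not 1 kind of cell between libraries.

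Bulge or outer root sheath-like and upper hair follicle-like cells were plentiful in both libraries at both times. In bulge or outer root sheath-like cells at 1 day 15 members had 20 or more UMIs, 9 above and 6 below 0, with a median log2 ratio of 0.15 (0.02 over all 11661 genes), and none passed 2-fold in either direction, where 3.16% of all genes were higher and 1.13% lower. Irf1 stood at 28.2 CPM in control and 48.3 CPM in the experimental library (0.78, 0.54 to 1.02), and Bst2 at 7.30 and 11.5 CPM (0.65, 0.16 to 1.13). In upper hair follicle-like cells at 1 day 15 members had a median of 0.03 (-0.01 over all genes), 8 above and 7 below 0.

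At 1 week 15 members were measured in the same cells, with a median log2 ratio of 0.43 (0.02 over all 11477 genes) and 10 above and 5 below 0. None was 2-fold higher, where 3.4% of all genes were, and Ifi27l2a, Ifi202b and Usp18 were at least 2-fold lower, where 4.04% were. Irf1 stood at 50.0 and 81.7 CPM (0.71, 0.46 to 0.96), Stat2 at 8.15 and 13.5 CPM (0.73, 0.11 to 1.37), Irf9 at 10.6 and 17.2 CPM (0.69, 0.14 to 1.25), and Ifi35 at 18.1 and 28.8 CPM (0.67, 0.26 to 1.09). Irf9 thus stood higher here at 1 week although its average over all keratinocytes was lower. In upper hair follicle-like cells at 1 week 3 members were at least 2-fold higher, Ifit1 (0 and 23 UMIs), Irf7 and Bst2 (6.30 and 17.7 CPM), where 7.74% of all genes were, and none was 2-fold lower, where 2.4% were. The median there was 0.02 (0.11 over all genes), with 8 of 15 members above 0. The experimental keratinocyte with most Ifit1 UMIs at 1 week also held 23, so the Ifit1 count in this class may rest on 1 cell.

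The 1 day libraries also carried antibody hashtags, which divide each library into 3 sets of tagged cells. What the tags mark is not given in the sources used here, so the sets are used as a look at spread within a library and not as replicates, and 27.7% of control and 48.4% of experimental cells had no clear tag. Of 23 members measured in keratinocytes, 1 (Irf7) was higher in all 3 experimental sets than in all 3 control sets, where 18% of all genes were, and 4 (Ifi202b, Ifi27, Oasl2 and Usp18) were lower in all 3, where 17.6% were. Irf7 stood at 2.03, 1.3 and 2.27 CPM in the control sets and at 6, 7.48 and 3.54 CPM in the experimental sets. Ifi27 stood at 196, 164 and 186 CPM against 117, 112 and 94.1 CPM.

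Ifi202b did not overlap in keratinocytes as a whole but did in basal-like cells. Over all keratinocytes the control sets were 1.55e+03, 1.36e+03 and 2.54e+03 CPM and the experimental sets 680, 462 and 560 CPM. In basal-like cells they were 3.46e+03, 2.49e+03 and 5.22e+03 CPM against 4.79e+03, 3.34e+03 and 2.46e+03 CPM. In those cells 2 of 16 members were lower in all 3 experimental sets, Oasl2 (9.2, 5.66 and 5.74 CPM against 0 UMIs in each) and Ifi27, where 11.2% of all genes were, and none was higher in all 3, where 9.33% were. The control basal-like sets held 927, 1636 and 1587 cells and the experimental ones only 63, 57 and 130. In sets of that size a few CPM stands for few UMIs, so the Oasl2 counts of 0 carry little weight. Irf1 varied as much between tagged sets as between genotypes, with 20.2, 46.2 and 27.8 CPM in the control and 37.9, 36.3 and 41.9 CPM in the experimental keratinocytes. In bulge or outer root sheath-like cells the Irf1 sets overlapped as well, at 18.2, 74.4 and 42.3 CPM against 41.5, 96.5 and 91.5 CPM. There 2 of 11 members, Stat2 and Ifih1, were higher in all 3 experimental sets, where 7.45% of all genes were, and none lower, where 6.46% were. Both rest on few molecules. Stat2 had 9, 4 and 4 UMIs in the control sets against 4, 7 and 6, and Ifih1 had 15, 5 and 11 against 11, 10 and 10. In granular-like cells 2 of 9, Irf7 (0, 4.04 and 2.58 CPM against 20, 14.6 and 10.7 CPM) and Ifi27l2a, were higher in all 3, where 15.8% were, and none lower, where 9.49% were. The control granular-like sets held only 10, 53 and 48 cells, with 0, 2 and 1 UMIs of Irf7 and 0 of Ifi27l2a in each. These 2 separations thus rest on very few control molecules.

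**Figure D4:**
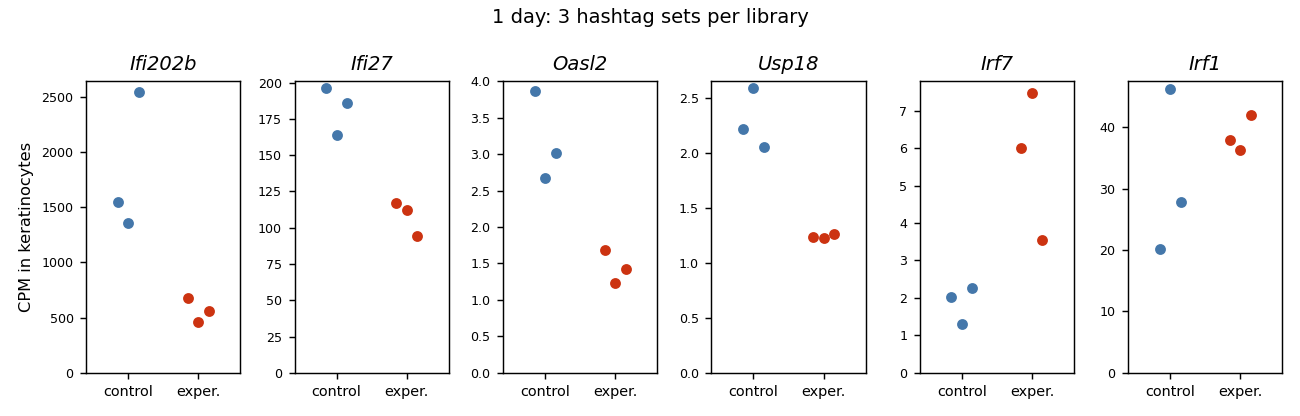
CPM of 6 members in keratinocytes of each hashtag set (3 per 1 day library; control blue, experimental red). The sets of Ifi202b, Ifi27, Oasl2, Usp18 and Irf7 do not overlap between libraries, and those of Irf1 do (20.2 to 46.2 against 36.3 to 41.9 CPM). Of 23 members, 4 were lower and 1 higher in all 3 experimental sets. That is no more than the share of all genes, 17.6% lower and 18% higher.

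T cells and Langerhans cells are the resident immune cells of the epidermis. In T cells at 1 day, 720 control and 266 experimental cells, 3 of 10 members were at least 2-fold lower, where 16.5% of all genes were: Isg15 (89.8 and 34.7 CPM), Bst2 (159 and 63.5 CPM) and Stat2 (17.5 and 4.79 CPM). Ifi202b was 2-fold higher (302 and 814 CPM), where 16.4% of all genes were. The class was made of different clusters in each library: 205 of the 266 experimental cells lay in a cluster with 9 control cells, while the control cells lay in 2 others (484 and 227 cells, with 30 and 31 experimental ones). Within the first of these, Isg15 stood at 118 CPM in control and 163 CPM (8 UMIs) in experimental cells, Bst2 at 216 and 184 CPM (9 UMIs) and Stat2 at 16.5 and 0 CPM (11 and 0 UMIs). The second cluster had Isg15 at 25.9 CPM (7 UMIs) and 33.6 CPM (2 UMIs), Bst2 at 33.3 CPM (9 UMIs) and 67.3 CPM (4 UMIs), and Stat2 at 22.2 CPM (6 UMIs) and 16.8 CPM (1 UMI). Ifi202b, higher over the whole class, was lower in each of these clusters, at 253 and 20.4 CPM (169 UMIs and 1 UMI) in the first and at 348 and 135 CPM (94 and 8 UMIs) in the second. The values over the class thus mix clusters in different shares, and those within clusters rest on 0 to 9 experimental UMIs. In all the T cells the summed T-cell markers stood at 1.18e+04 and 3.26e+03 CPM and the suprabasal keratinocyte markers at 2.8e+03 and 1.55e+04 CPM, so keratinocyte marker UMIs were a larger part of the experimental cells' counts; their part in these values was not tested. At 1 week none of 3 measured members passed 2-fold in T cells, where 4.09% of all genes were higher and 6.28% lower, with Isg15 at 376 and 290 CPM and Bst2 at 461 and 400 CPM.

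In Langerhans cells, the dendritic cells of the epidermis, Stat2 stood at 97.2 CPM in control and 80.4 CPM in experimental cells at 1 day (log2 ratio -0.27, -0.71 to 0.17, an interval that holds 0) and at 108 and 57.3 CPM at 1 week (-0.91, -1.71 to -0.15). At 1 day 2 of 9 members were at least 2-fold lower, Ifi202b (293 and 118 CPM) and Parp14 (26.1 and 12.9 CPM), where 1.66% of all genes were. None was 2-fold higher, where 4.2% were. The larger clusters of the class held 189 and 208, 149 and 156, and 29 and 71 cells. Ifi202b was lower past its interval in each of them. Parp14 had 11 and 5, 7 and 3, and 6 and 6 UMIs there, with intervals that hold 0. At 1 week 2 of 6 members, Irf1 (12.5 and 39.9 CPM) and Ifi27 (35.0 and 72.3 CPM), were at least 2-fold higher, where 12.2% of all genes were. Isg15 (46 and 8 UMIs, 115 and 19.9 CPM) was lower, where 5.73% were. The 1 week Langerhans cells numbered 107 and 58, and 17 of the 58 formed a cluster led by Ccl22 and Ccr7 with no control cell. In the cluster that both libraries shared, Irf1 stood at 12.5 CPM (5 UMIs) and 51.6 CPM (14 UMIs) and Isg15 at 115 CPM (46 UMIs) and 22.1 CPM (6 UMIs), so each of these rests on few molecules. In that cluster Stat2 stood at 108 and 70.1 CPM (43 and 19 UMIs, log2 ratio -0.62, -1.48 to 0.19), an interval that holds 0. Ifi27 stood there at 35.0 and 51.6 CPM (14 UMIs each, 0.56, -0.62 to 1.74), under 2-fold.

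Fibroblasts and smooth muscle cells or pericytes carried several members, Irf1 among them, at higher levels than keratinocytes in both genotypes. In fibroblasts at 1 day, 35 of whose 79 experimental cells lay in a cluster with 1 control cell, none of 3 measured members passed 2-fold, where 11.5% of all genes were higher and 8.95% lower. At 1 week Irf1 stood at 474 CPM in control and 517 CPM in experimental fibroblasts and Gbp2 at 167 and 236 CPM; Parp14 was at least 2-fold higher (35.6 and 85.1 CPM), 1 of 11 members where 6.38% of all genes were, and Ifi27l2a and Ifi202b were lower, where 4.84% were. The class held 2 clusters in different shares, 128 control and 38 experimental cells in one and 38 and 35 in the other. Parp14 stood at 39.4 CPM (21 UMIs) and 68.8 CPM (10 UMIs) in the first (log2 ratio 0.80, -0.45 to 1.95) and at 25.4 CPM (5 UMIs) and 99 CPM (17 UMIs) in the second (1.96, 0.46 to 3.75). Irf1 was lower in the first, at 418 and 289 CPM (-0.53, -1.05 to -0.05). In the second it stood at 625 and 710 CPM (0.18, -0.19 to 0.56). Gbp2 stood at 206 and 282 CPM in the first (0.45, -0.10 to 0.98) and at 61 and 198 CPM in the second (1.70, 0.71 to 2.78). In smooth muscle cells or pericytes, 29 and 38 cells, none of 4 members passed 2-fold, where 6.99% of all genes were higher and 6.53% lower, with Isg15 at 472 and 514 CPM and no Ifit1 UMI in either library. Over the stroma as a whole (fibroblasts, endothelial cells and smooth muscle cells or pericytes, 293 and 193 cells at 1 week) 7 of 21 members were at least 2-fold higher, where 7.17% of all genes were, and Ifi27l2a and Ifi202b lower, where 4.87% were, with a median log2 ratio of 0.81 (0.11 over all genes). The 7 were Ifit1, Ifit2, Irf7, Oasl2, Rsad2, Rtp4 and Parp14. Fibroblasts made up 166 of the control and 73 of the experimental stromal cells and endothelial cells 98 and 82, so the sum mixes classes in different shares.

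Endothelial cells of 1 week, 98 control and 82 experimental, held most of the stromal UMIs of Ifit1, Rsad2 and Parp14 in the experimental library. Of 16 members with 20 or more UMIs, 15 were higher in the experimental library, their median log2 ratio was 0.66 (0.06 over all 4698 genes), 5 were at least 2-fold higher, where 6.43% of all genes were, and none 2-fold lower, where 4.3% were. The 5 were Ifit1, Ifih1, Parp14, Rsad2 and Xaf1. Ifit1, Ifih1 and Xaf1 had no more than 6 control UMIs each and reached 20 through the experimental library. The experimental endothelial cells also held more UMIs in all, 371190 against 295443. These counts of higher members thus depend in part on how members entered. Ifit1 had 6 UMIs in 4 control cells (20.3 CPM) and 57 UMIs in 10 experimental cells (154 CPM), a log2 ratio of 2.92 (1.71 to 4.42). Rsad2, which encodes viperin, had 36 UMIs in 15 control cells (122 CPM) and 125 UMIs in 20 experimental cells (337 CPM), a log2 ratio of 1.47 (0.92 to 2.04). Parp14 had 20 and 92 UMIs (67.7 and 248 CPM), a log2 ratio of 1.87 (1.16 to 2.65).

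The endothelial class joins 2 clusters, present in different shares in the libraries. The one led by Selp, Sele and Vwf held 46 control and 51 experimental cells, and the one led by Ccl21a, Lyve1 and Prox1 held 52 and 31. In the Selp-led cluster Ifit1 stood at 28.7 and 162 CPM (5 and 46 UMIs, log2 ratio 2.50, 1.17 to 4.19), Rsad2 at 207 and 409 CPM (0.99, 0.44 to 1.57, just under 2-fold) and Parp14 at 103 and 317 CPM (1.62, 0.88 to 2.44). The Ccl21a-led cluster had 1 and 11 UMIs of Ifit1 (3.93, 1.14 to 9.35), 0 and 9 of Rsad2 and 2 of Parp14 in each library. Ifih1 had 5 and 16 UMIs in the Selp-led cluster (0.98, -0.54 to 2.78) and 0 and 9 in the other, and Xaf1 had 5 and 17 (1.06, -0.43 to 2.86) and 1 in each library. Isg15 was level in the Selp-led cluster, at 241 and 240 CPM, and stood at 165 and 388 CPM in the other (1.23, 0.39 to 2.11).

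Ifit1 and Rsad2 are 2 of the genes whose promoters, printed above, hold the response element spelling. Ifih1 had 5 and 25 endothelial UMIs (1.99, 0.58 to 3.73), and Xaf1 had 6 and 18 (1.26, -0.14 to 2.88), whose interval holds 0. Isg15 differed less, at 210 and 275 CPM, as did Irf7 (33.9 and 62.0 CPM), Rtp4 (81.2 and 127 CPM) and Irf1 (257 and 291 CPM). Bst2, at 355 and 310 CPM, was the member that stood lower. Members under 20 UMIs lay on both sides. Ifit2 (3 and 14 UMIs), Oasl2 (1 and 17) and Oasl1 (1 and 13) stood higher, while Ifi27l2a (10 and 2 UMIs, log2 ratio -2.65, -5.88 to -0.42), Ifi44 (10 and 6, -1.07, -2.81 to 0.54) and Ifi202b (4 and 1, -2.33, -7.95 to 1.01) stood lower.

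The Ifit1 and Rsad2 UMIs came from a minority of the endothelial cells, and the experimental cells were read deeper, with a median of 3046.5 UMIs against 1924. Without the highest cell of each library 5 members still passed 2-fold, and Ifit1 stood at 10.2 and 105 CPM. With each cell thinned to 2000 UMIs, the share with 3 or more UMIs of members other than Ifi202b and Ifi27 was 56.2% (exact interval 41.2 to 70.5) of 48 control cells and 68.3% (55.3 to 79.4) of 63 experimental cells, with 50 and 19 cells too shallow; unthinned they were 57.1% and 73.2%. These intervals cover the counting of cells only and compare 1 library with 1 library. In those cells the summed endothelial markers stood at 3.87e+03 and 3.61e+03 CPM with 7 of 7 detected, T-cell markers at 352 and 339 CPM, macrophage or dendritic cell markers at 6.77 and 2.69 CPM, and all 5 plasmacytoid dendritic cell markers at 0. Smooth muscle or pericyte markers differed (335 and 1.24e+03 CPM), as did erythroid markers (2.99e+03 and 0 CPM) and basal keratinocyte markers (2.18e+03 and 1.24e+03 CPM); their part in the result was not tested. No cluster was named endothelial at 1 day.

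**Figure D5:**
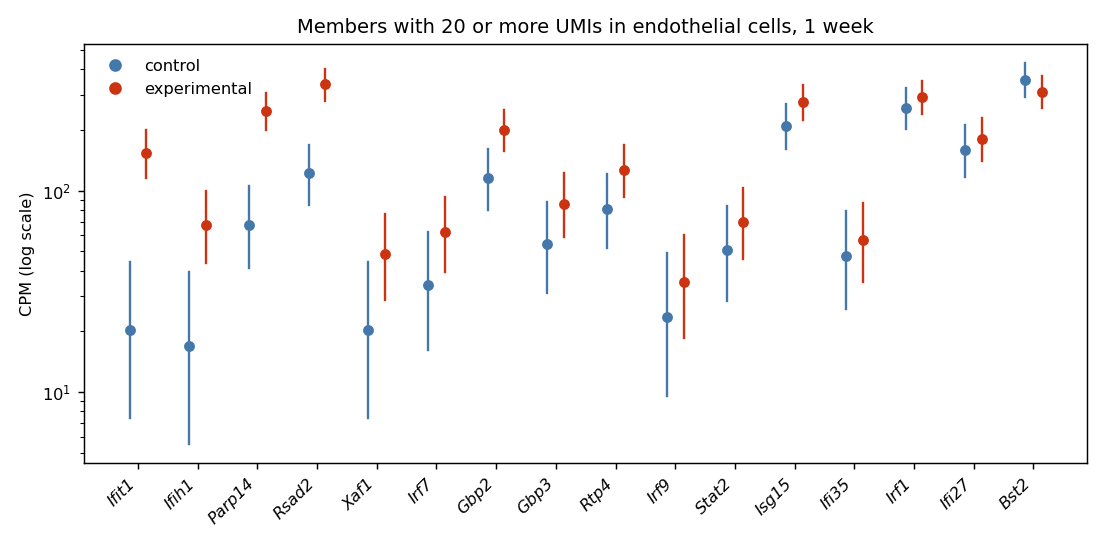
CPM (log axis) of the 16 members with 20 or more UMIs in endothelial cells at 1 week, control (blue, 98 cells) and experimental (red, 82 cells), with 95% Poisson intervals. Ifit1 (20.3 and 154 CPM) and Parp14 (67.7 and 248 CPM) are the pairs whose intervals lie furthest apart, and Bst2 is the one member lower in the experimental library.

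The rest of the interferon pathway was a list of 75 genes, of which 73 matched and 64 had 20 or more UMIs in both pairs of libraries. In keratinocytes it held genes past 2-fold in both directions. At 1 day 4 of the 64 were at least 2-fold higher in experimental keratinocytes and 2 lower, with a median log2 ratio of -0.01. At 1 week 7 were higher and 10 lower, with a median of 0.03. The shares of all genes given above for keratinocytes (8.98% and 3.09%, then 11.5% and 7.72%) are the background of these counts too.

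The ligands were nearly absent from keratinocytes. Ifnk had 68 control and 18 experimental UMIs at 1 day (log2 ratio -1.45, -2.29 to -0.69) and 38 and 10 at 1 week (-1.01, -2.18 to 0.03). Ifng, which encodes interferon gamma, had 7 and 18 keratinocyte UMIs at 1 day and 25 and 0 at 1 week, and in T cells 27 and 25 at 1 day and 24 and 9 at 1 week. Ifnb1 had 5 and 0 UMIs at 1 day and none at 1 week, Ifne had 1 in the 1 day control, and Ifnl3 had 9 in the experimental library at 1 week. Ifna2, Ifna4 and Ifnl2 had none in any library.

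Of the receptors and kinases named here, 1 passed 2-fold, Il10rb at 1 week. Of the type I receptor chains, Ifnar1 stood at 9.14 CPM in control and 10.0 CPM in experimental keratinocytes at 1 day and at 13.9 and 14.4 CPM at 1 week, and Ifnar2 at 14.8 and 10.2 CPM and at 20.01 and 22.7 CPM. Of the interferon gamma receptor chains, Ifngr1 stood at 58.2 and 78.2 CPM and at 118 and 147 CPM, and Ifngr2 at 13.6 and 22.4 CPM (log2 ratio 0.72) and at 22.7 and 38.9 CPM (0.77). Both gamma receptor chains were thus higher in the experimental library at both times, by less than 2-fold. The type III chain Ifnlr1 was level, at 5.95 and 5.33 CPM and at 6.27 and 5.95 CPM, while Il10rb, which it shares with the interleukin-10 receptor, stood at 2.996 and 3.74 CPM at 1 day and at 5.39 and 16.4 CPM at 1 week (1.61). Jak1 stood at 236 and 220 CPM and at 241 and 170 CPM (-0.51 at 1 week), Jak2 at 70.4 and 79.0 CPM and at 84.7 and 54.5 CPM (-0.63, -0.72 to -0.55), and Tyk2 at 4.91 and 4.82 CPM and at 6.96 and 7.55 CPM.

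Among inhibitors and further target genes, Samhd1, which depletes the nucleotides that viruses need, was at least 2-fold higher at both times, at 27.5 and 58.1 CPM (log2 ratio 1.08) and at 24.2 and 84.9 CPM (1.81). Socs3, a feedback inhibitor of JAK signalling, was 2-fold higher at 1 week (91.7 and 215 CPM), as were the chemokines Cxcl9 (0.933 and 10.9 CPM) and Cxcl10 (10.8 and 28.4 CPM) and the membrane protein gene Ly6e (261 and 523 CPM). Cmpk2 had 12 and 15 UMIs at 1 week, and at 1 day Gbp4 had 10 and 15 and Ifi204 had 70 and 131. The 1 week list of lower genes held Irf5 (19.4 and 8.27 CPM), Ikbke (9.18 and 3.56 CPM), the RNA exonuclease gene Isg20 (18.3 and 8.73 CPM) and Ifi47 (5.70 and 2.09 CPM). Ddx60, Ifi203, Slfn5 and Samd9l were lower as well, each below 2 CPM in both libraries, as was Oas1c at 1 day (1.70 and 0.801 CPM). Over all keratinocytes, Samhd1 was the one pathway gene past 2-fold in the higher direction at both times, and Ifnk in the lower. In bulge or outer root sheath-like cells at 1 week 7 of 46 pathway genes were at least 2-fold higher, against 3.4% of all genes. Socs3 and Ly6e were among the 7, but so was Irf5. The 2 lower genes there, against 4.04% of all genes, were Igtp and Cxcl10. Samhd1 did not pass 2-fold in those cells at either time.

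In endothelial cells at 1 week 8 of 37 measured pathway genes were at least 2-fold higher and none lower, against the 6.43% and 4.3% of all genes given above, with a median log2 ratio of 0.26. They were Socs1 (20.3 CPM in control and 62.0 CPM in the experimental library), Znfx1 (20.3 and 94.3 CPM), Parp9 (16.9 and 70.0 CPM), Helz2 (37.2 and 97.0 CPM), Gbp5 (57.5 and 119 CPM), Ifi203 (50.8 and 111 CPM), Samd9l (33.9 and 72.7 CPM) and Herc6 (27.1 and 59.3 CPM). Samd9l and Ifi203 were thus higher in endothelial cells and lower in keratinocytes of the same experimental library. The control endothelial cells held 295443 UMIs in all, so the lowest of these control levels stand for few molecules. The 2 endothelial clusters were not separated for these genes. Ifnar2 stood at 179 and 205 CPM in the endothelial cells, and of the ligands 3 UMIs of Ifnb1 were counted, all in the experimental library. Such counts were not particular to endothelial cells. In Langerhans cells at 1 week 7 of 24 pathway genes were higher, where 12.2% of all genes were, and 1 lower, where 5.73% were. In T cells 6 of 24 were higher, where 4.09% were, and none lower, where 6.28% were. The Langerhans count includes 17 experimental cells of a cluster with no control cell. The pathway genes were not separated by cluster in these classes either.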

How the data were processed

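Single-cell RNA was measured in 4 libraries, 1 for each genotype and time point. The deposited files hold raw UMI counts per gene and barcode, made with Cell Ranger 5.0.1 on mm10, per the submitters' processing notes; Seurat is also named there, with no role given. The 1 day libraries used the 3′ kit v3.1 and the 1 week libraries the 5′ kit v1.1, per the labels' protocols.

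A barcode was kept from 500 UMIs and 300 genes upward if mitochondrial genes held no more than 15% of its UMIs. The highest Scrublet scores were removed as doublets (0.8% per 1000 barcodes, 14.7 to 26.8% of a library; scanpy 1.11.5). Clustering took both libraries of a time point at once and left out the members and pathway genes (2000 variable genes, 30 principal components, 15 neighbours, Leiden resolution 1, leidenalg 0.10.2), and clusters were named from marker lists. The names are therefore rebuilt here. UMIs of the deposited count matrices were summed over each class and library and scaled to CPM of all gene UMIs, with exact Poisson intervals, and log2 ratios have exact binomial intervals conditional on both counts (scipy 1.17.1). A gene counted as called when it was at least 2-fold apart with 20 or more UMIs, over all cells of both libraries for keratinocytes as a whole and within the class otherwise, and a class was compared when each library held at least 20 of its cells. Where a library held 0 UMIs, the ratio was bounded against 3 counts. The scaling alternative used edgeR 4.0.16 (trimmed mean of M values). The counting steps were tested on simulated data.

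Members at 5 CPM or more in keratinocytes of a library are described with their values and the rest by count and range. In the pathway list the ligands, receptors, Jak1, Tyk2 and the genes past 2-fold in keratinocytes are named; 1 further gene of that rule is not reported here. Scarce members, Jak2, single clusters, values outside keratinocytes and the endothelial pathway genes were named after their values were seen. The members and lists were chosen with earlier results of these data known, and the hashtag sets, the endothelial alternatives and the values without the highest cell, without barcodes found in both libraries, for bulge or outer root sheath-like cells alone, with classes weighted as in the control and with low-UMI clusters counted as keratinocytes were chosen after seeing the data.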

Additional observations from a re-analysis of the deposited data

Results flagged for a closer look

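In keratinocytes 3 members lay on opposite sides of 0 at the 2 time points with counting intervals that exclude 0. Irf9 had a log2 ratio, experimental over control, of 0.19 at 1 day and -0.24 at 1 week, but over the alternatives it ran from -0.18 to 0.44 and from -0.36 to 0.69, so its direction turned at each time. Ifi35 had -0.20 and 0.20, with the same signs under each alternative run. Gbp2 had -0.68 and 0.55, and its 1 week value was -0.18 without the highest cell of each library and -0.28 without barcodes found in both libraries. The differences between the times were not tested, since each group is 1 library, and the kit and the sex make-up differed between the times.

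The low-UMI clusters of 1 week, which belong to no named class, held 5 of the members at 2-fold or more above the control library, where 9.66% of all genes were. Of their 22121 cells, 98.2% lay in clusters drawn almost wholly from 1 library (at least 95% of the cells), so the levels compare different clusters. In the experimental library Ifit1 stood at 2.37 CPM, Irf7 at 13.7 CPM (3.42 CPM in the control) and Rtp4 at 4.73 CPM. Rsad2 had 0 control and 53 experimental UMIs there, and Oasl1 had 0 and 22. Outside the 3 hashtags used, hashtag 4 was counted with 2256 UMIs in the control and 1425 UMIs in the experimental library at 1 day.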

How the results depend on the processing

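No paired analysis was possible because each group is 1 library. The median log2 ratio of the members ranged from -0.25 to 0.00 in keratinocytes at 1 day, from -0.16 to 0.48 at 1 week and from 0.33 to 0.84 in endothelial cells. At 1 day the 1 member at least 2-fold higher in keratinocytes became 2 with Krt8-led clusters counted as keratinocytes, 2 with no filter on UMIs, 2 with classes weighted as in the control, and 0 in bulge or outer root sheath-like cells alone; the 4 lower became 1 in bulge or outer root sheath-like cells and 2 with classes weighted. At 1 week the 6 higher became 2 in bulge or outer root sheath-like cells, and the 2 lower became 4 there and 5 with classes weighted, a weighting that leaves out suprabasal-like cells at this time. In endothelial cells the 5 higher became 3 at 50 or more UMIs and 10 with no filter, and the 0 lower became 3 with no filter. Counts for bulge or outer root sheath-like cells here take the genes with 20 UMIs over all cells of both libraries, unlike the counts for that class in the report. The share of all genes past 2-fold was not counted under the alternatives, so these counts have no background beside them. Over the alternatives the log2 ratio of Irf7 in keratinocytes ran from 0.44 to 1.71 at 1 day and from 0.82 to 1.90 at 1 week, under 2-fold in 1 of them each time, and that of Ifi202b from -1.67 to -0.17 and from -3.76 to -1.72. In keratinocytes the sign turned under at least 1 alternative for Irf9, Parp14 and Ifih1 at both times, Stat2, Bst2 and Ifi27l2a at 1 day, and Irf1 and Gbp2 at 1 week; these ratios were under 2-fold. Usp18 at 1 week ran from -3.29 to -0.87. Ifit1 in endothelial cells ran from 2.46 to 3.54. With 1 library per group, depth limits the scarce members to counting error and nothing measures the spread between animals.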
